A study of Mus musculus with 6 samples.

Results

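The genes of the cardiac myosin motor and of its closest partners were followed in cultured neonatal cardiomyocytes treated with α-ketoglutarate (αKG). They were 10 genes of the 20066 genes of the deposited RNA-sequencing table. 3 encode heavy chains (*Myh6*, *Myh7* and *Myh7b*) and 4 encode light chains (*Myl2*, *Myl7*, *Myl3* and *Myl4*). The others are the light chain kinase *Mylk3* and the myosin-binding protein C genes *Mybpc2* and *Mybpc3*. All 10 were listed, and all 10 had a mean of at least 10 normalized reads. They were taken by name, with no threshold on a measured value. The cells were C57BL/6 cardiomyocytes taken at P0-1, and 3 cultures received DMSO, the solvent control, while 3 received a cell-permeable form of αKG at 100 µM, both for 96 h. αKG is a Krebs cycle intermediate and a cofactor of dioxygenases, among them histone demethylases, and the comparison asks how its addition alters the transcripts of these cells. The dose is that of the labels, and the study's methods name a different one. For experiments with neonatal cardiomyocytes, the methods describe a sample as 1 isolation from pooled hearts, so a culture is a pool of animals and no value belongs to 1 mouse.

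Myosin is the motor of the sarcomere, the contractile unit of muscle. Each molecule pairs heavy chains, which hydrolyse ATP and pull on actin, with essential and regulatory light chains, which stiffen and tune the lever arm. In the mouse, the β heavy chain encoded by *Myh7* prevails in the ventricle before birth and gives way to the faster α chain encoded by *Myh6* afterwards, a switch that depends on thyroid hormone and that partly turns back under load and in disease. Myosin-binding protein C lies along the thick filament and restrains the heads, and light chain kinases phosphorylate the regulatory chain and thereby ease the heads away from the filament. These are statements of background, and none of them was tested here.

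The heavy chain genes carry microRNAs in their introns, which are shown because they form a related group across *Myh6*, *Myh7* and *Myh7b*. The mature sequences below are from RefSeq (GRCm38.p6), written 5′ to 3′ with the seed, bases 2 to 8, in capitals. They belong to the hosts *Myh6* (chr14:54949072-54949093, minus strand), *Myh7* (chr14:54975710-54975731, minus strand) and *Myh7b* (chr2:155622893-155622913, plus strand).
mmu-miR-208a-3p: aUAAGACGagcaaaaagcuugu
mmu-miR-208b-3p: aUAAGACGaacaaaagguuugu
mmu-miR-499-5p: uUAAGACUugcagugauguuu
miR-208a-3p and miR-208b-3p share their seed and are identical at 19 of 22 bases. The seed of miR-499-5p has a different last base. Of the precursor genes, *Mir208a* was listed, while *Mir208b* and *Mir499* are not analysed here.

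Each library held between 3725428 and 4428655 reads in genes, estimated from the steps between its values, and between 37 and 5416 estimated reads stood behind each value of the 10 genes. αKG replicate 3 stood apart from αKG replicates 1 and 2. Over log2 values of all genes its correlation with them was 0.962 and 0.963, against 0.977 to 0.98 with the DMSO libraries, so that the values of the 10 genes are also given without it. DMSO replicates 2 and 3 differed as a whole by no more than sampling noise, with a chi-square of 1.02 per gene. However, 16 genes differed between them by more than 4 SD of counting error, where 0.83 would be reached by counting error alone, and they were kept as separate libraries. All 10 cardiomyocyte markers were listed, with a summed value of 69987 to 72739 in DMSO and 74853 to 105519 in αKG, the lowest being αKG replicate 3. *Ttn*, the titin gene, carried most of this, with 51569, 54216 and 53157 against 80306, 84136 and 55569, and the other 9 markers summed to 18418, 18523 and 18797 against 21792, 21383 and 19284. The list's median log2 fold change was 0.08. 1 of them, *Csrp3*, rose, beside 2.83% of all genes. Without αKG replicate 3, 5 were called (4 higher, 1 lower), beside 19.3% higher and 17.9% lower of all genes. In bulk RNA, fewer cells of a type and less RNA per cell cannot be told apart.

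Of the 10 genes, 2 passed the test and both rose with αKG (limma, adjusted p under 0.05 over all 20066 genes). *Myh7* and *Mybpc2* were 3.91 and 4.99 times as high in αKG as in DMSO. Of all genes 3.78% were called, 2.83% higher and 0.952% lower, so that 2 of 10 lies above that background in number, over few genes. The median log2 fold change of the 10 genes was 0.11, beside 0.04 for all genes. 4 of the 10 did not overlap between groups, with *Myh7*, *Myl4* and *Mybpc2* higher and *Mylk3* lower in every αKG library. Over all genes, 28.3% did not overlap, 13.7% on the higher side and 14.6% on the lower, so that 4 of 10 is not far from what the table gives. At an unadjusted p under 0.05, 4 of 10 were called, beside 28.1% of all genes. Without αKG replicate 3, 6 of 10 were called, beside 37.2% of all genes. Of these, *Myh6*, *Myh7*, *Myl4*, *Mybpc2* and *Mybpc3* were higher and *Mylk3* was lower. Without αKG replicate 1 or 2, limma called 0 genes of the whole table (3324 and 3244 had an unadjusted p under 0.05), so that every call over all 6 libraries was lost there. Without DMSO replicates 1, 2 or 3 it called 152, 3 and 4 genes, *Mybpc2* among them each time. The median of the 10 was 0.16 without αKG replicate 3, beside 0.06 for all genes. In αKG replicate 3, 5 of the 10 genes lay within the DMSO range, namely *Myh6*, *Myl2*, *Myl7*, *Myl3* and *Mybpc3*.

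**Figure D1:**
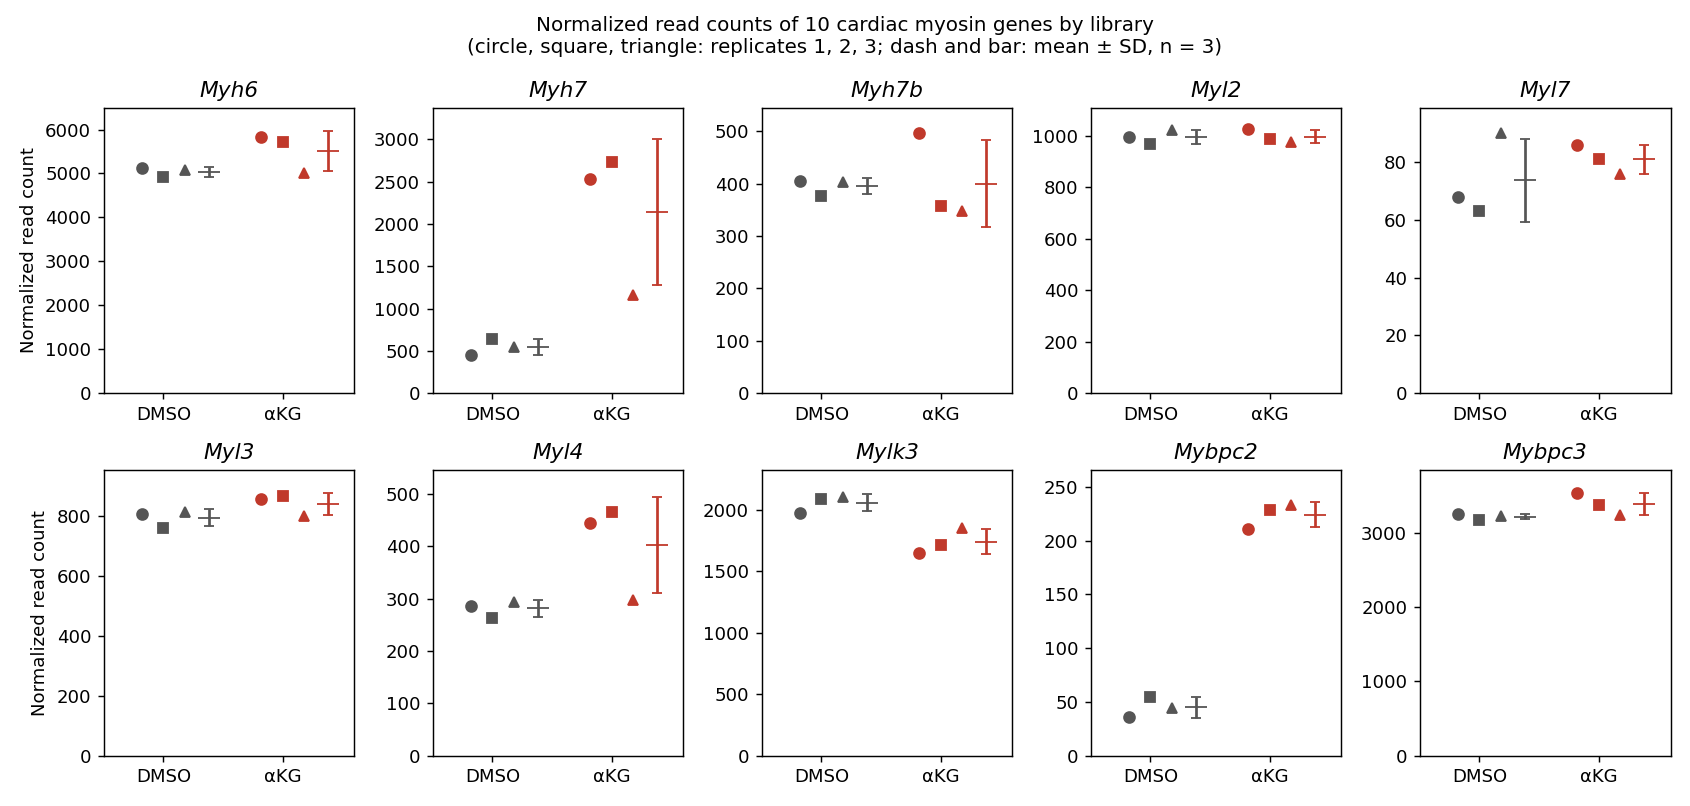
Normalized read counts (y axis, from 0, scaled per gene) of the 10 myosin genes in 3 DMSO libraries (grey) and 3 αKG libraries (red). Circles, squares and triangles are replicates 1, 2 and 3, and the dash with its bar is the mean ± SD. *Mybpc2* was at 211 to 233 in all αKG libraries, whereas for *Myh7* αKG replicate 3, at 1157, lay between the DMSO libraries and the other αKG libraries.

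*Myh7* (ENSMUSG00000053093, chr14:54970684-54994626, minus strand) encodes the β, slow heavy chain. It had 453, 641 and 550 normalized reads in the DMSO libraries and 2535, 2732 and 1157 in the αKG libraries. Every αKG library was above every DMSO library, with αKG replicate 3 well below the other αKG libraries. The mean was 548 ± 94 in DMSO and 2141 ± 858 in αKG (SD, n = 3), or 1.88 ± 0.28 higher on the log2 scale (± SE; adjusted p = 0.0146, limma). Leaving out αKG replicate 3 gave 2.28 (adjusted p = 0.000366). The call was lost in 8 of 18 alternatives. It was lost without any 1 of DMSO replicates 1, 2 and 3 or αKG replicates 1 and 2, without the variance trend, with the replicate block and with DMSO replicates 2 and 3 averaged. The log2 difference was between 1.66 and 2.28 throughout, and the adjusted p between 0.000366 and 0.255.

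*Myh6* (ENSMUSG00000040752, chr14:54941921-54966927, minus strand), the α, fast heavy chain gene next to *Myh7*, did not pass. Its values were 5115, 4910 and 5074 in DMSO and 5839, 5707 and 5002 in αKG. αKG replicates 1 and 2 lay above all DMSO libraries, and αKG replicate 3 lay among them. The means were 5033 ± 108 and 5516 ± 450; the log2 difference was 0.13 ± 0.06 (adjusted p = 0.202). It came to 0.20 without αKG replicate 3 (adjusted p = 0.00415 in limma), and with quantile normalization it was -0.10, so that its direction depends on the scaling.

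*Myh7b* (ENSMUSG00000074652, chr2:155611212-155634307, plus strand) encodes a slow heavy chain whose transcript in heart mostly serves as the host of *Mir499*. It had 405, 377 and 403 normalized reads in DMSO and 496, 357 and 348 in αKG, so that αKG replicate 1 was the highest library and αKG replicate 3 the lowest. The log2 difference was 0.00 ± 0.13 (limma adjusted p = 1.0), 0.09 without αKG replicate 3 (limma adjusted p = 0.615), and between -0.16 and 0.09 over the alternatives.

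The sum of *Myh6* and *Myh7* was 5568, 5551 and 5624 in DMSO and 8374, 8439 and 6159 in αKG. *Myh7* made up 8.14%, 11.5% and 9.78% of the reads of this pair in DMSO, and 30.3%, 32.4% and 18.8% in αKG. The groups did not overlap, and the mean share was 9.82% ± 1.71 in DMSO and 27.1% ± 7.31 in αKG (SD, n = 3). The ratio of *Myh7* to *Myh6* is unaffected by the scaling of a library. It was 0.0886, 0.131 and 0.108 in DMSO and 0.434, 0.479 and 0.231 in αKG, a difference in mean log2 ratio of 1.75 with a pooled SD of 0.45, or 3.37-fold. Its two-sided exact permutation p was 0.1, the smallest that 3 against 3 libraries allow (0.167 after Benjamini-Hochberg adjustment over 5 ratios). This test thus cannot reach a p under 0.05 for any ratio. The difference was 2.08 when αKG replicate 3 was left out. For *Myh7b* to *Myh6* the difference was -0.13 with a pooled SD of 0.16 (exact permutation p = 0.4) and -0.11 without αKG replicate 3, and the groups overlapped.

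Both chains are near-identical over part of their length, which bears on how reads were assigned. Of all 75-base windows of the longest *Myh6* transcript, 939 of 6039 (15.55%) also occurred in *Myh7*, and 1213 of 6156 windows of *Myh7* (19.7%) occurred in other genes. The authors left out reads that map to several places, so such reads are missing from both genes, and reads with mismatches could still have been placed in the other gene. In *Mybpc2*, 1.39% of windows were shared, all with the overlapping *Gm44646*, and the other 7 genes shared none.

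**Figure D2:**
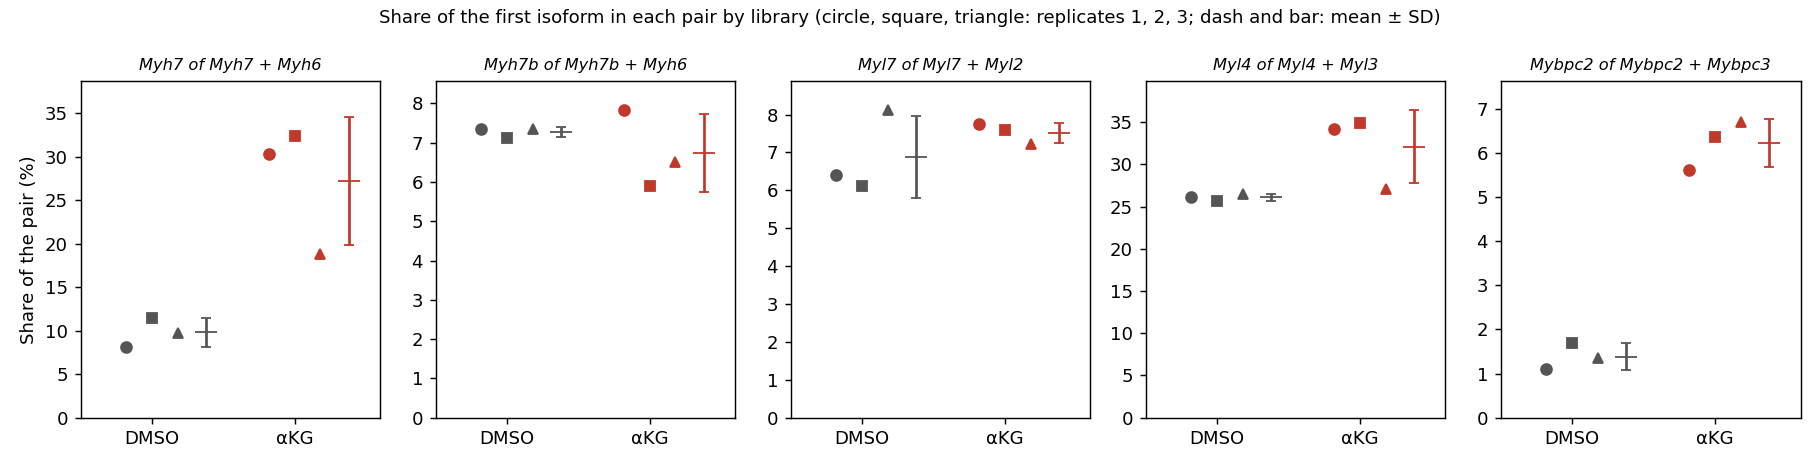
Share of the reads of an isoform pair (y axis, %, from 0, scaled per panel) that came from the first gene, by library, in DMSO (grey) and αKG (red). Circles, squares and triangles are replicates 1, 2 and 3, and the dash with its bar is the mean ± SD. The share of *Myh7* was 8.14 to 11.5% in DMSO and 18.8 to 32.4% in αKG, and that of *Mybpc2* 1.1 to 1.7% and 5.62 to 6.7%, while *Myh7b* and *Myl7* overlapped between groups.

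Other transcripts of the heavy chain locus were read from the same interval. *Mhrt* (chr14:54968678-54974349), a long noncoding RNA antisense to *Myh7*, shares 484 exonic bases with it. It had 266, 262 and 252 normalized reads in DMSO and 370, 317 and 259 in αKG, with a log2 difference of 0.26 ± 0.13 (limma adjusted p = 0.206). *Gm31251* (chr14:54979393-54991601), also antisense and with 523 shared exonic bases, had 302, 358 and 312 in DMSO and 516, 429 and 319 in αKG (log2 difference 0.35 ± 0.16, adjusted p = 0.176 in limma). Neither passed, and in both αKG replicate 3 was at the DMSO level. Both were called without αKG replicate 3 (limma adjusted p = 0.0115 and 0.0104). *Gm17428*, annotated within a *Myh7* intron on the other strand, had 65, 80 and 70 against 125, 114 and 68 (limma adjusted p = 0.209, and 0.00633 without αKG replicate 3). *Mir208a*, read within its *Myh6* host intron, had 6, 7 and 9 against 18, 15 and 4, which did not pass (limma adjusted p = 0.568) but was called when αKG replicate 3 was left out (adjusted p = 0.0297). The library kit marks strand, but counting by strand is not stated in the sources used here. Without it, reads over the exonic bases that *Myh7* shares with its antisense genes cannot be told apart. They would then be missing from both genes, since the authors left out reads of several genes. The 3.91-fold difference of *Myh7* was larger than that of any of these neighbours.

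**Figure D3:**
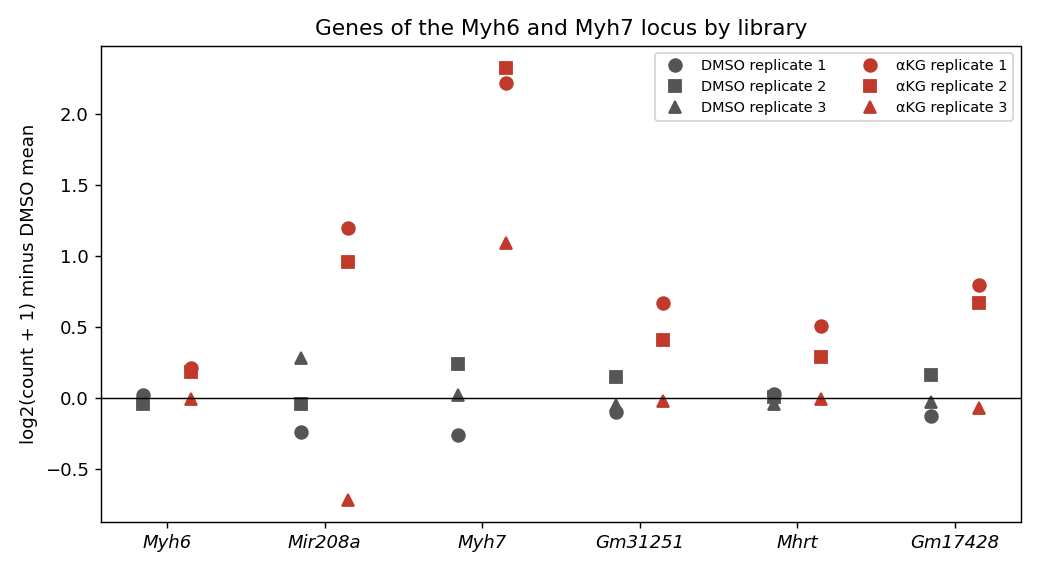
Difference of each library from the DMSO mean on the log2(count + 1) scale (y axis). The genes are *Myh6*, *Mir208a*, *Myh7*, the antisense genes *Gm31251* and *Mhrt*, and *Gm17428*, annotated as protein coding on the strand opposite to *Myh7*. Grey is DMSO, red is αKG, and circles, squares and triangles are replicates 1, 2 and 3. *Myh7* stood at 2.22, 2.33 and 1.09 in the αKG libraries, and αKG replicate 3 lay at or below 0 for the other genes.

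*Mybpc2* (ENSMUSG00000038670, chr7:44501699-44524656, minus strand) encodes myosin-binding protein C of fast skeletal muscle, which is normally scarce in heart. It had 36, 55 and 44 normalized reads in DMSO and 211, 229 and 233 in αKG. αKG replicate 3 was the highest library here, and the groups were far apart. The means were 45 ± 9.54 and 224.3 ± 11.7 (SD, n = 3), or 2.31 ± 0.17 higher on the log2 scale (adjusted p = 0.000799, limma). The value was 2.28, and called, without αKG replicate 3. It lost its call without αKG replicate 1 (limma adjusted p = 0.203) or αKG replicate 2 (0.198), and kept it in the other 16 alternatives. *Mybpc3* (ENSMUSG00000002100, chr2:91118144-91136516, plus strand) encodes the cardiac form, a frequent site of mutations in hypertrophic cardiomyopathy. It had 3247, 3177 and 3221 in DMSO and 3542, 3371 and 3243 in αKG, with αKG replicate 3 among the DMSO libraries. Its log2 difference was 0.07 ± 0.05 (limma adjusted p = 0.356), 0.10 without αKG replicate 3 (limma adjusted p = 0.0466) and -0.10 with quantile normalization.

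*Mybpc2* was 1.1%, 1.7% and 1.35% of the reads of both genes in DMSO, and 5.62%, 6.36% and 6.7% in αKG. The difference in mean log2 ratio was 2.26 with a pooled SD of 0.25, a 4.8-fold higher ratio (exact permutation p = 0.1, 0.167 adjusted over 5 ratios), and 2.21 without αKG replicate 3. Other skeletal muscle genes were read beside it. Of 21 skeletal markers 16 were listed, and *Myog*, *Myod1*, *Pax7*, *Myh4* and *Atp2a1* were not among them. The summed value of the 16 was 1228 to 1300 in DMSO and 1375 to 1496 in αKG. Without *Casq1* it was 1262, 1160 and 1186 in DMSO and 972, 1008 and 1230 in αKG, so that αKG replicates 1 and 2 were then lower. *Tnni1* carried most of that sum, with 858, 795 and 809 in DMSO and 550, 562 and 788 in αKG. *Tnnt1* had 173, 190 and 208 against 128, 151 and 205. Which cells made these transcripts was not tested, so the sum is not read as a measure of skeletal muscle. Of the 16 genes, 12 had a log2 fold change above 0, and the median was 0.46. Without αKG replicate 3, 4 were called higher and 2 lower, beside 19.3% and 17.9% of all genes. Over all libraries 1 of the 16 was called, and it rose, beside 2.83% of all genes. This gene, *Casq1*, encodes the calcium store protein of fast muscle. It had 38, 68 and 67 in DMSO and 454, 488 and 145 in αKG (log2 difference 2.49, adjusted p = 0.0242 in limma). *Myh1* and *Myh2*, adult fast heavy chains, were at 4 to 12 normalized reads in all libraries. The part of other cell types in the *Mybpc2* value was not tested.

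The promoters of the called genes *Myh7* and *Mybpc2*, and of *Myh6* beside them, are shown because they share the letters of an MCAT element, the binding motif of TEAD factors, which is known from cardiac and skeletal muscle genes. The sequences run from 250 to 51 bases before the RefSeq start (GRCm38.p6), on the minus strand, with MCAT matches in capitals. They lie at chr14:54994677-54994876, chr7:44524720-44524919 and chr14:54966658-54966857.
Myh7: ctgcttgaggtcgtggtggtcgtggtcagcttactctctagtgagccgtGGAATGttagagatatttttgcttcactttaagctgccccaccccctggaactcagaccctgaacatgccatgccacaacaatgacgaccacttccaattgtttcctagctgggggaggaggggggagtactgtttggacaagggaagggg
Mybpc2: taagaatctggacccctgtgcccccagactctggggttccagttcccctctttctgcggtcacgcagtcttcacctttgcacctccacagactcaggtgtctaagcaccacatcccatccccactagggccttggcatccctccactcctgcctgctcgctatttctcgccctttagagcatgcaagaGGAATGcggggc
Myh6: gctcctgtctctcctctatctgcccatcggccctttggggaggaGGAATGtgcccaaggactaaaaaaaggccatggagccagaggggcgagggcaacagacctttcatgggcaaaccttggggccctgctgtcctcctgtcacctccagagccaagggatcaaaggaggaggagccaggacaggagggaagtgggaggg
The letters searched were CATTCC on both strands, in the 250 bases before the start. In these 3 promoters the matches overlapped no other motif searched, and they began 201 bases before the start in *Myh7*, 206 in *Myh6* and 62 in *Mybpc2*. Of 32851 windows of all promoters 12.6% held a match, and 6 of the 10 myosin genes did in at least 1 of their windows, of which there were 13. The other genes with a match were *Myl7*, *Myl3* and *Mylk3*. The windows with the match lay within the listed gene for *Myl3* (chr9:110763428-110763727) and *Mylk3* (chr8:85365275-85365574), not before its listed start. Among the 6 genes with a match are genes that passed the test and genes that did not. A GATA site (AGATAA, 9.99% of windows) was found before *Myh7b*, *Myl2* and *Mylk3*. For *Mylk3* the window with it (chr8:85380992-85381291) also lay within the listed gene. The letters of a TATA box (TATAAA, 12.4%) were found before *Myl2* alone of the 10. They lay on the opposite strand, 216 to 211 bases before the start, in the window chr5:122092939-122093238, whereas *Myl2* is listed from base 122100951. An E-box (CANNTG) was found in 66.2% of windows and before 9 of the 10 genes. A MEF2 site (2.92%) was found before *Mybpc3*, and CArG boxes (1.47%) before *Myl7* and *Myl3*, the latter in the *Myl3* window named above. These are matches of letters and were not tested for binding.

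Of the light chain genes none passed over all libraries. *Myl4* (ENSMUSG00000061086, chr11:104550663-104595753, plus strand) encodes the essential light chain of the atrium and of the fetal heart. It had 286, 264 and 294 normalized reads in DMSO and 445, 465 and 297 in αKG. The groups did not overlap, but αKG replicate 3 lay only 3 reads above the highest DMSO library. The means were 281.3 ± 15.5 and 402.3 ± 91.8, a log2 difference of 0.49 ± 0.16 (adjusted p = 0.0917, limma), and 0.69 without αKG replicate 3 (limma adjusted p = 0.00115). *Myl3* (ENSMUSG00000059741, chr9:110741861-110769798, plus strand) encodes the ventricular essential chain. It had 808, 762 and 814 against 857, 867 and 799, which overlapped (log2 difference 0.08 ± 0.07, adjusted p = 0.446 in limma), and the difference was 0.12 without αKG replicate 3 (limma adjusted p = 0.0859). The ratio of *Myl4* to *Myl3* was 0.354, 0.346 and 0.361 in DMSO and 0.519, 0.536 and 0.372 in αKG. The difference in mean log2 ratio was 0.41 with a pooled SD of 0.21 (exact permutation p = 0.1, 0.167 adjusted over 5 ratios), and 0.58 without αKG replicate 3.

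Neither regulatory light chain passed. *Myl2* (ENSMUSG00000013936, chr5:122100951-122113472, plus strand), the ventricular chain, had 995, 968 and 1020 in DMSO and 1024, 988 and 975 in αKG. Its means of 994.3 ± 26 and 995.7 ± 25.4 gave a log2 difference of 0.00 ± 0.06 (limma adjusted p = 0.994), 0.02 without αKG replicate 3 (limma adjusted p = 0.779), and between -0.04 and 0.02 over the alternatives. *Myl7* (ENSMUSG00000020469, chr11:5896637-5898782, minus strand), the atrial chain, had 68, 63 and 90 in DMSO and 86, 81 and 76 in αKG. The spread in DMSO was as wide as the distance between the groups (log2 difference 0.15 ± 0.17, adjusted p = 0.588 in limma, and 0.19 with adjusted p = 0.402 without αKG replicate 3). *Myl7* made up 6.4%, 6.11% and 8.11% of the reads of both regulatory chains in DMSO and 7.75%, 7.58% and 7.23% in αKG (log2 ratio difference 0.15, pooled SD 0.17, exact permutation p = 0.4, and 0.18 without αKG replicate 3). The ventricular chains together had 1803, 1730 and 1834 reads in DMSO and 1881, 1855 and 1774 in αKG, and the atrial chains 354, 327 and 384 against 531, 546 and 373. Atrial markers other than myosin had 1 of 10 called, *Stard10*, which fell, beside 0.952% of all genes. Without αKG replicate 3, 3 of these atrial markers were called higher and 2 lower, beside 19.3% and 17.9% of all genes. Ventricular markers had 1 of 10 called, *Irx3*, which also fell, beside 0.952% of all genes. The summed ventricular markers were 9520 to 9754 in DMSO and 8076 to 9171 in αKG. Without αKG replicate 3, 6 were lower and 0 higher, beside 17.9% and 19.3% of all genes. The atrial ones were 3787 to 3890 and 3891 to 4283, of which *Pam* had 1939, 1986 and 2037 against 2435, 2454 and 2099, and the other 9 summed to 1848, 1876 and 1853 against 1809, 1829 and 1792. The part of atrial or ventricular cell numbers in the light chain values was not tested.

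*Mylk3* (ENSMUSG00000031698, chr8:85324303-85386345, minus strand) encodes the cardiac kinase of the regulatory light chain, which is needed for the assembly of sarcomeres. It had 1978, 2087 and 2109 normalized reads in DMSO and 1653, 1714 and 1854 in αKG. All αKG libraries were lower, with αKG replicate 3 nearest to DMSO. The means were 2058 ± 70.1 and 1740 ± 103, a log2 difference of -0.24 ± 0.06, which missed the threshold (limma adjusted p = 0.0561). It passed in 6 of 18 alternatives, among them the unadjusted p of the same fit. The limma adjusted p was down to 0.00351 without αKG replicate 3, where the log2 fold change was -0.29. The difference lay between -0.31 and -0.21 throughout.

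**Figure D4:**
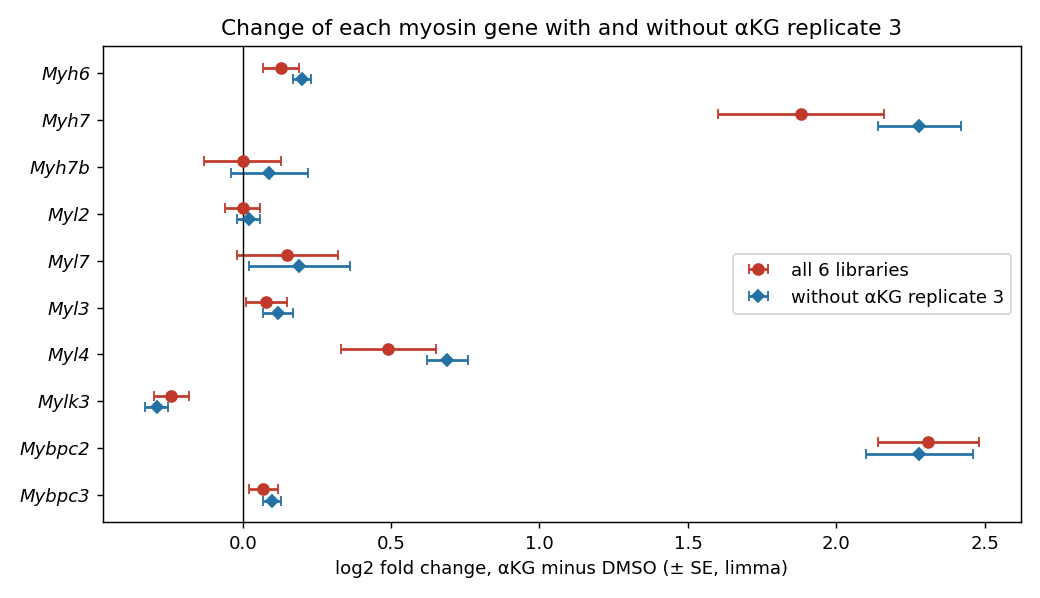
Log2 fold change (x axis, αKG minus DMSO, bars ± SE from limma) of each of the 10 genes over all 6 libraries (red circles) and without αKG replicate 3 (blue diamonds). *Myh7* moved from 1.88 to 2.28 and *Myl4* from 0.49 to 0.69 without that library, while *Mybpc2* was at 2.31 and 2.28.

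Levels can be compared between genes only per length, here as normalized reads per kilobase of exon. The length was that of all annotated exons of a gene together, 1950 bases for *Myl2* and 2044 for *Myl3*. Their longest transcripts have 889 and 1125 bases, so the order of levels between genes depends on the length used. In DMSO the order of the mean levels was *Mybpc3* (772 ± 8.5), *Myh6* (748 ± 16.1), *Myl2* (510 ± 13.3), *Mylk3* (481 ± 16.4), *Myl3* (389 ± 13.9), *Myl7* (125 ± 24.3), *Myh7* (63.6 ± 10.9), *Myl4* (60.7 ± 3.35), *Myh7b* (59.5 ± 2.35) and *Mybpc2* (12.5 ± 2.64). Of these neighbours *Myh7*, *Myl4* and *Myh7b* overlapped in their libraries, and the others did not. In αKG *Myh7* was at 249 ± 99.6, above *Myl7* (137 ± 8.47) in mean but overlapping it in its libraries. *Mybpc2* was at 62.1 ± 3.25, which overlapped with *Myl4* (86.8 ± 19.8) and *Myh7b* (60.3 ± 12.5). *Myh6* (820 ± 66.9) and *Mybpc3* (813 ± 36) exchanged places but overlapped, as did *Myl3* (411 ± 18) and *Mylk3* (406 ± 24.1). The level of *Myh6* per kilobase therefore stayed above that of *Myh7* in every library, 744 to 868 against 134 to 317 in αKG. Reads of total RNA were counted where they touch an exon, so unspliced transcripts can add to these levels.

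Partners of the thick filament were read from a list of 20 genes, all listed in the table. 2 rose, 0 fell and 18 did not pass, beside 2.83% higher and 0.952% lower of all genes. The median log2 fold change was 0.14. *Myom1*, a protein of the M-line that crosslinks myosin filaments, had 3495, 3583 and 3624 in DMSO and 4560, 4575 and 4004 in αKG (log2 difference 0.29, adjusted p = 0.0374 in limma). *Fhl1*, a LIM protein that binds myosin-binding protein C, had 367, 463 and 455 in DMSO and 917, 1077 and 541 in αKG (0.93, limma adjusted p = 0.0477). In both genes every αKG library was above every DMSO library, with αKG replicate 3 the lowest of them. These calls, those of the other lists and those of the cell type markers were also lost without any 1 of the DMSO libraries. The myosin chaperone gene *Unc45b* had 1158, 1143 and 1176 against 762, 705 and 1082 and did not pass (limma adjusted p = 0.0744). Leaving out αKG replicate 3, 6 of the 20 were higher and 5 lower, beside 19.3% and 17.9% of all genes.

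Further sarcomeric chains, those of skeletal, embryonic and extraocular muscle, were listed for 8 of 10 genes, of which 0 passed in limma. *Myh8*, the perinatal heavy chain, was nearest with 63, 28 and 30 in DMSO and 87, 81 and 74 in αKG (limma adjusted p = 0.064). 2 of the 8 had an unadjusted p under 0.05 and 2 were called without αKG replicate 3, beside 28.1% and 37.2% of all genes. The median log2 fold change was 0.40, where 6 of the 8 genes stayed at or below 13 normalized reads. *Myh8* was also called without DMSO replicate 1. Non-muscle and smooth muscle myosin II, which drives cytokinesis and cell tension, was listed for 9 of 9 genes. 2 rose and 0 fell, beside 2.83% and 0.952% of all genes, with a median of 0.34. 6 were called without αKG replicate 3, all higher, beside 19.3% of all genes. *Myl9*, a regulatory light chain of smooth muscle and non-muscle cells, had 306, 289 and 300 in DMSO and 417, 458 and 452 in αKG (0.57, limma adjusted p = 0.0133). *Myh10*, the non-muscle heavy chain IIB, had 1571, 1530 and 1511 against 2061, 2119 and 1861 (0.39, limma adjusted p = 0.0209). In both genes the groups did not overlap. Of 10 smooth muscle and pericyte markers 2 rose, *Cnn1* and *Cspg4*, beside 2.83% of all genes. The summed level was 3859 to 4030 in DMSO and 4403 to 5442 in αKG. *Cspg4* had 801, 846 and 777 against 1576, 1282 and 1021, and the other markers summed to 3084, 3184 and 3082 against 3866, 3840 and 3382. Much of that was *Des*, with 1410, 1377 and 1405 against 1723, 1743 and 1464, and *Acta2*, with 970, 1020 and 1007 against 1019, 1020 and 1131. Which cells made these transcripts was not tested. Leaving out αKG replicate 3, 5 of these markers were called higher, beside 19.3% of all genes. *Myh11*, the defining smooth muscle heavy chain, was at 6 to 13 normalized reads in all libraries. Fibroblast markers had 0 of 10 called in limma, and 6 had an unadjusted p under 0.05, beside 28.1% of all genes. Without αKG replicate 3, 8 were called, all higher. Their sums were 4538 to 4743 in DMSO and 9990, 9549 and 4639 in the αKG libraries. Of 10 endothelial markers 7 fell, beside 0.952% of all genes, with sums of 2247 to 2340 in DMSO and 1552 to 1697 in αKG. Without αKG replicate 3, 7 of these were lower and 2 higher, beside 17.9% and 19.3% of all genes. Of 10 epicardial markers 0 were called in limma (2 had an unadjusted p under 0.05), but all 10 were called higher without αKG replicate 3, beside 19.3% of all genes. Their sums were 499 to 525 in DMSO and 1276, 1204 and 466 in the αKG libraries. Of the macrophage markers 4 of 10 were listed and of the red blood cell markers 1 of 7, *Alas2*, and they summed to at most 41 and 4. The part of these cells in the myosin values was not tested.

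A further list held light chain kinases other than *Mylk3* and the myosin phosphatase, which removes the phosphate from the regulatory chain. It also held other kinases (*Rock1*, *Rock2*, *Dapk3*, *Camk2d* and *Prkg1*) and the phosphatase inhibitors *Ppp1r14a*, *Ppp1r14b* and *Ppp1r14c*. Of these genes 15 of 15 were listed. 1 rose and 14 did not pass, beside 2.83% higher and 0.952% lower of all genes. The median log2 fold change was 0.01. The gene that rose was *Camk2d*, a calcium-dependent kinase of the heart and not one of the light chain kinases or phosphatase subunits. It had 1834, 1906 and 1793 in DMSO and 2613, 2705 and 2079 in αKG (0.41, limma adjusted p = 0.0446). *Mylk4*, a further light chain kinase of muscle, had 462, 462 and 395 against 1010, 953 and 461, with αKG replicate 3 at the DMSO level (limma adjusted p = 0.0869). Of the phosphatase subunits, *Ppp1r12b* had 2581, 2683 and 2609 against 2705, 2517 and 2486 (limma adjusted p = 0.723). When αKG replicate 3 was left out, 4 of the 15 were higher and 4 lower, beside 19.3% and 17.9% of all genes.

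Of 25 regulators of cardiac myosin genes, all listed, 1 fell and 24 did not pass, beside 0.952% lower and 2.83% higher of all genes. The median log2 fold change was -0.09. The gene that fell was *Thrb*, a thyroid hormone receptor, with 266, 269 and 268 in DMSO and 163, 183 and 205 in αKG (-0.55, limma adjusted p = 0.036). Its DMSO libraries were nearly equal and all αKG libraries lay below them. *Thra*, the receptor that prevails in heart, had 882, 800 and 792 against 712, 704 and 808 (limma adjusted p = 0.231). *Tead1*, whose product binds MCAT elements, had 1898, 2117 and 1970 against 1990, 2018 and 1977 (log2 difference 0.00, adjusted p = 0.998 in limma). *Irx4*, a ventricular factor, had 616, 592 and 615 against 277, 276 and 551 (limma adjusted p = 0.0715). *Hey2*, another, had 399, 340 and 332 against 164, 136 and 338, with αKG replicate 3 among the DMSO libraries (limma adjusted p = 0.0928). Without αKG replicate 3, 12 of the 25 were lower and 3 higher, beside 17.9% and 19.3% of all genes. Of the RNAs hosted by or antisense to the 10 genes, 2 of 6 were listed, *Mir208a* and *Mhrt*. Of these limma called 0 (0 also at an unadjusted p under 0.05), and 2 without αKG replicate 3, beside 37.2% of all genes. The genes of these lists were chosen with earlier results of these data known.

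The genes whose pattern over the 6 libraries was most like that of *Myh7* were sought among 8294 genes with a mean of at least 100, by the root mean square distance of log2 differences from the DMSO mean. The nearest was *Xirp2* at 0.16, an actin-binding protein of cell junctions, with 1243, 1798 and 1617 in DMSO and 5817, 6504 and 3182 in αKG. *Ryr3* (0.19), *Col12a1* (0.22) and *P3h2* (0.26) were also among the 5 nearest. For *Mybpc2* the nearest were *Creb5* (0.32), *Acta1* (0.37), *Dusp8* (0.49), *Nppb* (0.51) and *Myh7* (0.52). Of these, *Acta1*, the skeletal α-actin, had 68, 78 and 84 in DMSO and 429, 481 and 239 in αKG, and *Dusp8*, a phosphatase of MAP kinases, had 96, 97 and 85 against 290, 280 and 319. Like *Mybpc2*, *Dusp8* was highest in αKG replicate 3. For *Mylk3* the distances ranged from 0.01 for *Sart1* to 0.02 for *Secisbp2l*, *Ulk2*, *Golga2* and *Ube3b*. *Sart1*, a splicing factor, had 291, 306 and 306 in DMSO and 240, 247 and 274 in αKG (limma adjusted p = 0.124). Small differences lie closer together on this scale than large ones, so the distances of *Mylk3* cannot be set beside those of *Myh7* and *Mybpc2*. The distance is over libraries that share their depth and treatment, and is given as a description without a test.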

How the data were processed

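Total RNA of neonatal cardiomyocyte cultures was sequenced as single-end 75-base reads, 3 libraries with DMSO and 3 with αKG, grouped by the labels' treatment field. Per the study's methods and the submitters' processing notes, the authors checked reads with FastQC 0.11.8, trimmed them with Trimmomatic 0.39, aligned them with STAR 2.7.10a to mm10 (GRCm38.p5) and counted those touching an exon per gene with featureCounts 2.0.3, leaving out reads of several genes or places. The authors also used Picard 2.27.1 and DESeq2 1.30.1. The deposited values are treated as a score, because the authors had scaled the read counts of each library to a common size and then rounded them, so that they are not raw counts and no count model was run on them. They are called normalized reads here, and their totals differed by up to 2.41%. The table's other numeric columns are gene positions, and 0 columns of sample values were left unused.

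The value of 1 read was estimated per library from the steps between values, a method tested on simulated data, and gave the estimated reads. Counting error was taken from these reads alone, and copies made by PCR, which carry no molecular identifiers, are not part of it. All 6 libraries entered 1 limma fit (limma 3.58.1, R 4.3.3) on log2(value + 1) with treatment as the only term and a variance trend, without a filter, and p-values were adjusted by Benjamini-Hochberg over 20066 genes with a threshold of 0.05. The pseudocount of 1 understates the change of low genes. The fit was tested on simulated data in which all libraries had the same spread and none stood apart as αKG replicate 3 did. That test therefore does not show how the fit behaves with such a library. Ratios of isoform pairs were compared by exact permutation of libraries (Python 3.11.15, SciPy 1.17.1). Exon lengths came from GENCODE M21, in which 99.0% of genes had identical positions, and promoter and miRNA sequences from RefSeq (GRCm38.p6), with promoter windows for all 10 genes.

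The named genes were the 10 myosin genes, up to 5 called genes of each list, genes overlapping the 10, and the 5 genes most like *Myh7*, *Mybpc2* and *Mylk3*. Of these, 1 gene is not reported here. Other list genes were named after their values were seen, with those values. The 10 genes and the lists were chosen with earlier results of these data known. Same-numbered libraries did not deviate together (correlations of -0.074, 0.136 and 0.002), and treatment was fitted without pairs. The deviations were taken from group means to which αKG replicate 3, which stood apart, belongs. These correlations therefore cannot exclude that same-numbered cultures were paired. Alternatives were other pseudocounts, a filter on low values, other scalings, limma-voom on estimated reads, no variance trend, a replicate block, a correction for GC and length, and leaving out each library. Leaving out each library was extended to the cell type markers after seeing the data.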

Additional observations from a re-analysis of the deposited data

How the results depend on the processing

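The counts of called genes depended on the processing more than the differences did. Of 180 values of the 10 myosin genes under alternatives, the unadjusted p among them, 158 kept their direction and side of the threshold. Of the others, 10 lost a call, 10 gained one and 2 turned. These 2 were *Myh6* and *Mybpc3*, at -0.10 each with quantile normalization, and the cause was not tested. *Myh7b* and *Myl2* were at 0.00, so no direction was read from them. Against 759 called genes in the table, a pseudocount of 0.1 gave 346, no variance trend 27, limma-voom on estimated reads 362, the replicate block 46, the GC and length correction 1239, both together 1703, an unadjusted p under 0.05 5648, and DMSO replicates 2 and 3 averaged, chosen after seeing the data, 19. The share of higher genes among the calls was 74.8%, and 42.5% with the GC and length correction (526 higher, 713 lower), 40.6% with the replicate block as well, 92.6% without the variance trend, 97.8% with the replicate block alone, 94.7% with the averaged libraries and 51.8% without αKG replicate 3. Leaving out 1 library gave 0 to 7466 calls: 152, 3 and 4 without DMSO replicates 1, 2 and 3, and 0 without αKG replicate 1 or 2, where limma had 3324 and 3244 genes at an unadjusted p under 0.05, and 7466 without αKG replicate 3.

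Of the 10 myosin genes, 2 were called, 1 without the variance trend, 1 with the replicate block, 1 with the averaged DMSO libraries, 4 at an unadjusted p under 0.05 and 0 to 6 with 1 library left out (0 without αKG replicate 1 or 2, 6 without αKG replicate 3). In the limma fits without the variance trend, with the replicate block and with the averaged DMSO libraries, 0 genes were called in each list of thick filament partners, non-muscle chains, kinases and phosphatase, and regulators. Of the 20, 9, 15 and 25 genes of these lists, 11, 3, 8 and 11 had an unadjusted p under 0.05 in the fit reported, beside 28.1% of all genes. For thick filament partners, against 2, a pseudocount of 0.1 gave 0, while quantile normalization, limma-voom and the GC and length correction gave 1 each. For kinases and phosphatase, against 1, a pseudocount of 0.1 and limma-voom gave 0, the GC and length correction 2, and 4 with the replicate block as well. For regulators, against 1, these last corrections gave 4 and 7. For the further sarcomeric chains, against 0, the replicate block with the GC and length correction gave 1, and 2 had an unadjusted p under 0.05. With 1 library left out the lists had 0 to 11 calls (thick filament partners), 0 to 2 (further sarcomeric chains), 0 to 6 (non-muscle chains), 0 to 8 (kinases and phosphatase), 0 to 15 (regulators) and 0 to 2 (hosted and antisense RNAs), each highest without αKG replicate 3. The replicate block moved the 5 log2 ratio differences by nothing, since it leaves means unchanged, and each ratio kept its direction and moved by less than 1 SD in every alternative run. Estimated depths of 37 to 5416 reads per value limit *Mybpc2* and *Myl7* most.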
